A study of Mus musculus with 84 samples.

Results

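Expression of beta-catenin and of the genes filed beside it as its TCF partners was measured with spotted mouse cDNA arrays by taking every clone that carried the single symbol Ctnnb1, Lef1, Tcf7l2 or Tcf4. The rule found 5 of 15360 clones on the 15k arrays, namely Ctnnb1 clone 2a11, Lef1 clone 12g18, Tcf7l2 clone 27i10 and Tcf4 clones 15j20 and 17a12. On the 8.7k arrays it found 4 of 8832 clones, which were the same clones without Tcf7l2. Each had a value on every array of its type. Each array compared Cy5-labeled RNA of 1 sample with Cy3-labeled reference RNA, a single preparation pooled from several FVB mouse organs that included thymus, spleen, ovary and liver. Every value below is a log2 ratio of sample to that reference, so 0 means as much as in the reference, and levels of different clones cannot be ranked against each other.

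The 65 arrays of the 15k type held 5 mammary glands of 9-week-old virgin nontransgenic FVB mice (VMG), 7 hyperplastic glands of 9-week-old MMTV-Wnt-1 transgenic mice (WntHMG), 23 mammary tumors of MMTV-Wnt-1 mice aged 9 to 56 weeks (WntT) and 12 mammary tumors of MMTV-Neu mice aged 32 to 60 weeks (NeuT). They also held 10 lung metastases of MMTV-Wnt-1 mice (WntM), 3 of MMTV-Neu mice (NeuM), 2 lung metastases of nontransgenic mice that had received Neu tumor cells by tail vein (NeuM tail vein), and 3 samples of intestinal fat of 12-week-old virgin FVB mice (Fat). The 8.7k arrays compared 10 further WntT with 6 tumors of p53-/- MMTV-Wnt-1 mice aged 9 to 14 weeks. In both transgenic lines the long terminal repeat of mouse mammary tumor virus (MMTV) drives the oncogene, which is Wnt-1 in one line and a rat wild-type Neu cDNA in the other. MMTV-Wnt-1 mice had a mixed FVB, SJL and C57BL/6 background and MMTV-Neu mice an FVB background, so oncogene, age and strain cannot be told apart in comparisons of the 2 lines. Because the VMG mice were FVB, transgene and strain cannot be told apart where Wnt-1 samples are set against VMG. Tumors and glands differed in their range of ages as well, so tissue and age cannot be told apart between them. The range of WntT covers tumors of both array types and differed from that of the p53-/- tumors. Loss of p53 and age therefore cannot be told apart either. No source used here says whether samples of a group came from separate animals, so p-values measure the spread between these samples.

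Wnt ligands such as Wnt-1 act through frizzled and LRP receptors to block a cytoplasmic destruction complex that otherwise marks beta-catenin for degradation. Stabilized beta-catenin enters the nucleus and binds TCF/LEF factors, DNA-binding proteins of the HMG-box family that hold target genes silent with co-repressors and activate them with beta-catenin. Beta-catenin also links cadherins to the actin skeleton at cell junctions. This control works largely on the protein, which RNA arrays do not measure. In the mammary gland the pathway is known for its part in bud formation and in the upkeep of stem and progenitor cells.

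Gene identifiers showed that Tcf4 is not a beta-catenin partner. Ctnnb1 (gene 12387) lies on chromosome 9 at 120933400-120960507, Lef1 (gene 16842) on chromosome 3 at 131110297-131224357 and Tcf7l2 (gene 21416) on chromosome 19 at 55741797-55933659 of GRCm38.p6. Tcf7l2, an HMG-box factor, has Tcf4 and Tcf-4 among its older names. Both clones filed as Tcf4 belong to gene 21413, whose older names include E2-2 and ITF-2. That gene encodes a helix-loop-helix E protein, a class of factor that binds E-box DNA as a dimer and is held inactive by Id proteins. The set therefore held beta-catenin, 2 HMG-box partners and 1 unrelated factor that shares the old name of Tcf7l2. The clones' own sequences were not used here, and where in each transcript a clone lies is not known.

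Windows of RefSeq (GRCm38.p6) that run from 250 bases before to 50 bases after a transcript start were searched on both strands for the TCF/LEF core motif in its forms CTTTGAA, then CTTTGAT, then CTTTGTA, then CTTTGTT. Of 32851 windows over all genes 16.9% held at least 1. Neither window of Ctnnb1 held one, nor did the most upstream windows of Lef1 and Tcf7l2. An internal start of Lef1 (chr3:131156044-131156343) and an internal start of Tcf7l2 (chr19:55895071-55895370) each held 1. They are shown because these starts lie inside genes whose own products bind this motif, with the match in capitals, both from the plus strand.
Lef1 internal start: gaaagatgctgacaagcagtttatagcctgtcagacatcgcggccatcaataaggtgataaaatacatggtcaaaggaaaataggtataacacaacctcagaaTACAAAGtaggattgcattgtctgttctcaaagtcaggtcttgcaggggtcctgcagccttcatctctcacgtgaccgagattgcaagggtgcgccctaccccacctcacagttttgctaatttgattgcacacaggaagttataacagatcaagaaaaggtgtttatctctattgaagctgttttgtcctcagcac
Tcf7l2 internal start: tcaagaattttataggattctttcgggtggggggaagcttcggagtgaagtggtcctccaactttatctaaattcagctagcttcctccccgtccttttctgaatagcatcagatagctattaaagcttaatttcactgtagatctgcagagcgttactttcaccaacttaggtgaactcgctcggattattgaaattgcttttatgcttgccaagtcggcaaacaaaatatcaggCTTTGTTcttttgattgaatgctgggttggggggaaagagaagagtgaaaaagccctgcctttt
A match is a description of these letters, and the arrays do not say which start was used.

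Each array type was 1 print run. Medians of the 15k arrays ran from -0.144 to 0.0431, and 6 of these arrays had log2 ratios with a standard deviation (SD) above 1.3 (1 Fat, 3 WntM and 2 WntT), of which Fat 44 at 2.59 was the widest. No single-symbol clone of Wnt1, Erbb2 or Trp53 was among those used here, so the labels were not checked against the altered genes. Mean log2 ratios of the marker lists matched the labelled tissues in part. The 11 adipocyte genes lay between 3.35 and 3.62 in Fat, 2.31 and 2.63 in VMG, 1.00 and 1.57 in WntHMG, and -2.62 and -0.92 over WntT and NeuT. The 7 lung epithelial genes lay between -0.44 and 1.58 in WntM and between -3.53 and -1.94 in WntT. In whole tissue, fewer cells of a type and less RNA per cell cannot be told apart.

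Ctnnb1, which encodes beta-catenin itself, was lowest in the hyperplastic glands and highest in the metastases and tumors of MMTV-Wnt-1 mice. The 7 WntHMG ran from -3.97 through a median of -2.60 to -0.70. The 5 VMG read -2.86, -2.35, -0.85, -0.81 and 0.57, a spread wide enough to reach into both the hyperplastic glands and the tumors. The 23 WntT ran from -1.93 through 0.90 to 1.81 and the 12 NeuT from -2.29 through 0.37 to 1.10, so the 2 sets of tumors overlapped over most of their range. Lung metastases stood with the tumors, the 10 WntM from 0.07 through 0.95 to 2.21, NeuM at -0.60, 0.22 and 0.68, and the tail vein metastases at -0.21 and 0.64. Fat read -1.15, -0.99 and -0.66. Means with SD were -2.69 ± 1.04 (n = 7) for WntHMG, -1.26 ± 1.36 (n = 5) for VMG, 0.06 ± 0.93 (n = 12) for NeuT, 0.52 ± 1.05 (n = 23) for WntT and 1.04 ± 0.65 (n = 10) for WntM.

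Lef1, an HMG-box partner of beta-catenin best known from lymphocytes and from epithelial buds, was far below the reference in every sample. The highest of all its 15k values was -1.57, in VMG 13. The 23 WntT ran from -5.16 through -2.99 to -1.77, the 12 NeuT from -5.27 through -2.64 to -1.88 and the 10 WntM from -4.37 through -3.10 to -2.39. WntHMG ran from -3.01 through -2.14 to -1.68, and VMG read -3.52, -3.01, -2.76, -1.94 and -1.57. These 5 groups overlapped each other. NeuM were the closest set, at -2.00, -1.96 and -1.79, while the tail vein metastases read -4.71 and -2.95. The 3 Fat samples read -9.59, -5.09 and -3.50, and the lowest of them was the widest array, Fat 44. On average its ratio ranked between the lowest 0.827% of clones on an array in Fat and the lowest 3.34% in NeuM. The reference contained thymus and spleen RNA, and the 8 lymphocyte marker genes also averaged below it in every sample, from -2.02 in WntM to -0.31 in WntHMG. Whether the make-up of the reference bears on the Lef1 values was not tested.

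Tcf7l2, the HMG-box factor whose older name is Tcf4, was above the reference in all but a few samples. Group means lay between 0.41 (Fat) and 1.06 (WntHMG), with an SD of 0.54 in WntT and 0.47 in WntHMG. The 23 WntT ran from -0.60 through 0.99 to 1.81, and the 7 WntHMG from 0.51 through 1.08 to 1.88. The 12 NeuT ran from -0.08 through 0.47 to 0.87, and the VMG read 0.23, 0.35, 0.42, 0.54 and 0.79. Samples carrying the Wnt-1 transgene thus reached higher than any sample without it, although the ranges overlapped. The 10 WntM ran from 0.36 through 0.84 to 1.62. NeuM read 0.20, 0.52 and 0.71, the tail vein metastases 0.17 and 0.89, and Fat 0.26, 0.46 and 0.52.

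On the 15k arrays the 2 clones of Tcf4, the helix-loop-helix factor, did not follow each other. Clone 15j20 stayed within a narrow band, with means of 0.80 ± 0.24 (SD, n = 7) in WntHMG, 0.69 ± 0.15 (n = 23) in WntT, 0.66 ± 0.14 (n = 10) in WntM, 0.42 ± 0.23 (n = 5) in VMG and 0.33 ± 0.19 (n = 12) in NeuT. Clone 17a12 split the tumors by line. The 23 WntT ran from 0.25 through 0.96 to 1.65 and the 12 NeuT from -1.31 through -0.52 to 0.35, and 22 of the 23 Wnt-1 tumors were above every Neu tumor. WntM, at 0.24 through 0.99 to 1.56, stood with the Wnt-1 tumors, and NeuM, at -0.72, -0.67 and -0.54, and the tail vein metastases, at -0.79 and -0.40, stood with the Neu tumors. WntHMG ran from -0.37 through 0.08 to 0.40. For this clone VMG formed 2 sets, VMG 13 and 17 at -0.01 and 0.20 beside VMG 27, 29 and 28 at 1.02, 1.10 and 1.11, while Fat read 0.75, 0.78 and 1.06. Over the 65 arrays r between the 2 Tcf4 clones was 0.26. Both are reported singly for that reason, and an average of them is uncertain as a measure of the gene.

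**Figure D1:**
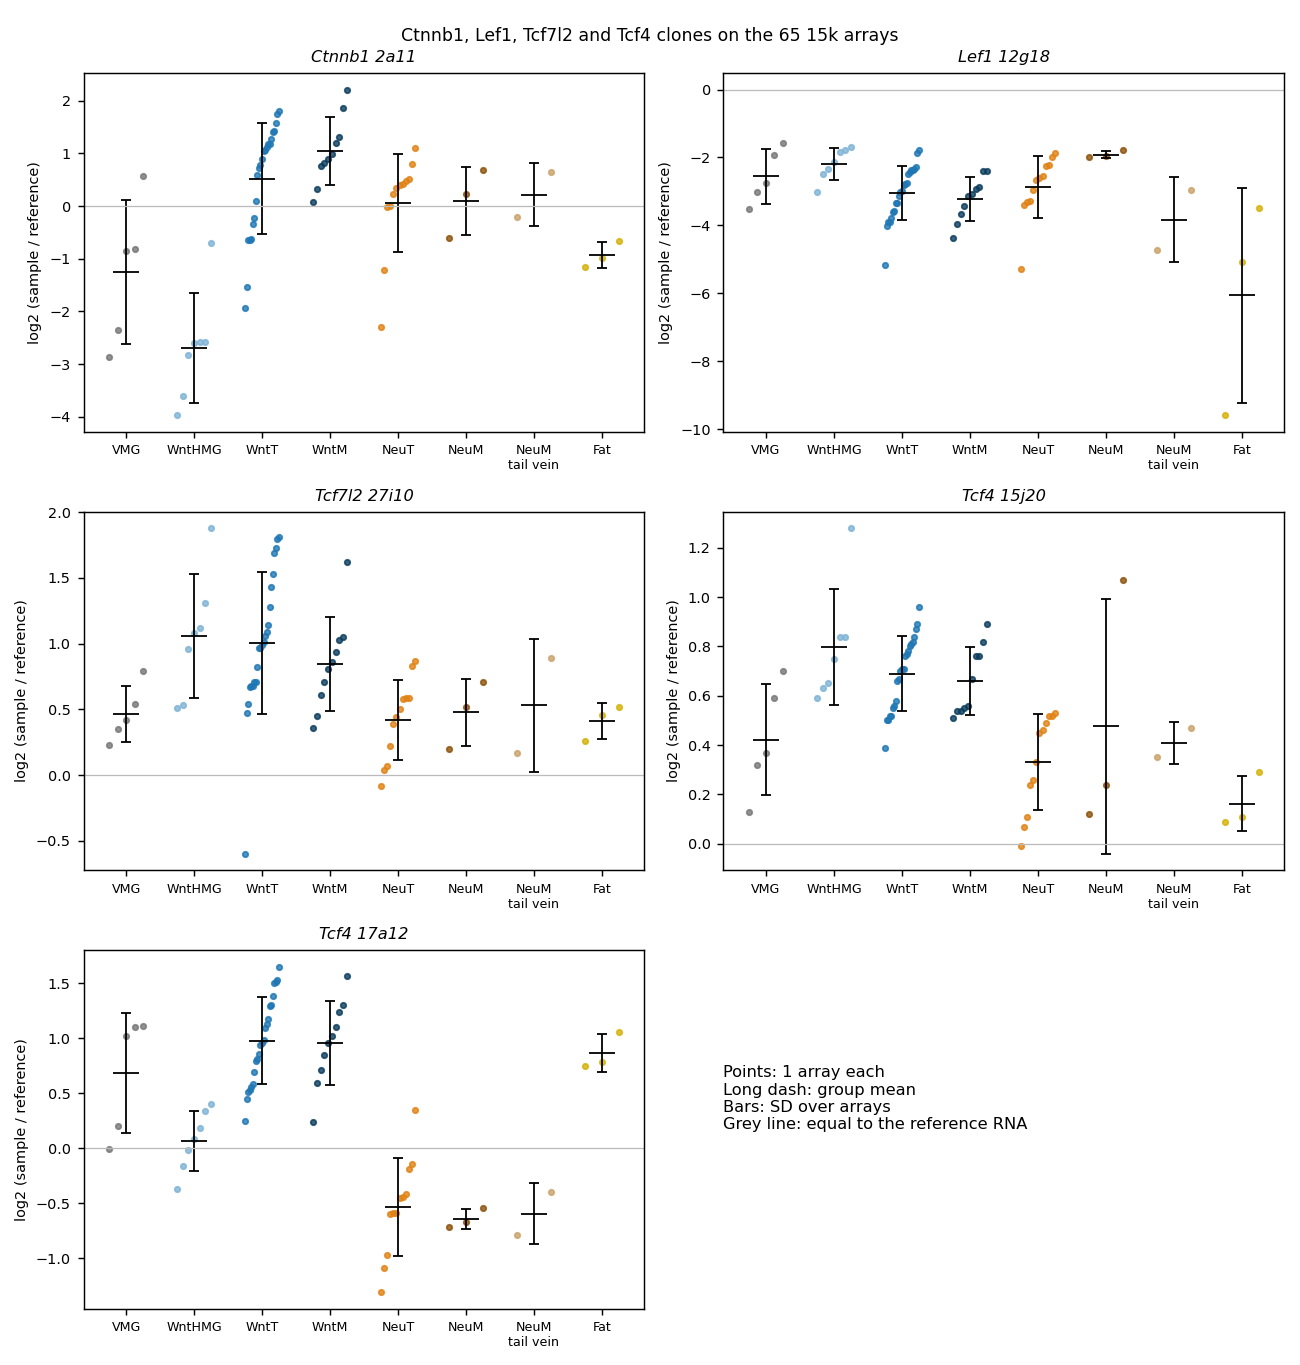
Log2 ratios of sample to reference (y axis, a scale of its own in each panel) for the 5 clones in the 8 groups of the 15k arrays (x axis), each point 1 array, with the group mean and SD. Tcf4 17a12 is higher in most WntT and WntM than in any NeuT or NeuM, with 1 NeuT inside the WntT range, Ctnnb1 is lowest in WntHMG, and Lef1 is below 0 on every array.

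The same VMG arrays stood apart for other clones. VMG 13 and 17 were the lowest of the 5 for Ctnnb1 (-2.35 and -2.86) and the highest for Lef1 (-1.57 and -1.94) and Tcf4 15j20 (0.70 and 0.59), in each case on the side of the hyperplastic glands. Over all single-symbol clones with a value on every array, these 2 also correlated more with WntHMG, at a median r of 0.74 and 0.81 against 0.66 to 0.70 for VMG 27, 28 and 29. The part of these 2 arrays in the results below is given by leaving out each VMG array in turn, and its source was not tested.

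Comparison of hyperplastic with virgin glands asks what differs before tumors form between Wnt-1 transgenic and nontransgenic mice, which also differed in strain. None of the 5 clones passed the test, limma with Benjamini-Hochberg adjustment over all clones at 0.05, which called 21.9% of the 15360 clones here. Ctnnb1 differed by -1.43 ± 0.59 (log2 difference and SE, adjusted p = 0.103), Tcf7l2 by 0.59 ± 0.21 (adjusted p = 0.0568), Tcf4 15j20 by 0.38 ± 0.14 (0.0638), Tcf4 17a12 by -0.62 ± 0.21 (0.0543) and Lef1 by 0.38 ± 0.32 (0.433). At an unadjusted p under 0.05 limma gave 4 of the 5, all but Lef1, and 34.3% of all clones. Without VMG 17 limma called Ctnnb1 (-1.83, adjusted p = 0.0388), Tcf7l2 (0.67, 0.0462) and Tcf4 17a12 (-0.74, 0.0281). Without VMG 13 it called Tcf4 15j20 (0.45, 0.0352) and Tcf4 17a12 (-0.79, 0.0107). After quantile normalization it called Tcf7l2 (0.70, 0.0438) and Tcf4 15j20 (0.46, 0.0345). The adipocyte list was lower in WntHMG, with 10 of 11 genes called lower and a median fold of 0.416 where 13.2% of all genes were called lower. Of 8 endothelial genes 5 were called lower. Of 5 luminal genes 3 were called higher and 1 lower, where 9.08% of all genes were called higher. The part of these lists in the differences was not tested.

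Tumors of MMTV-Wnt-1 mice were then set against hyperplastic glands of the same line. Of the 5 clones, 3 were called, where limma called 41.7% of all clones. Ctnnb1 was 9.26-fold higher in the tumors (3.21 ± 0.44, log2 difference and SE, limma adjusted p = 4.16e-07), and 21 of 23 tumors were above every hyperplastic gland. Tcf4 17a12 was 1.88-fold higher (0.91 ± 0.16, 2.19e-05), with 22 of 23 tumors above every gland. Lef1 was lower by 0.86 ± 0.31 on the log2 scale (-0.86, adjusted p = 0.0246), a call lost after quantile normalization (-0.29, 0.488) and with all groups in 1 fit (adjusted p = 0.0896). Tcf7l2 differed by -0.05 with a 95% confidence interval of -0.50 to 0.40, and Tcf4 15j20 by -0.11 with an interval of -0.27 to 0.05. The adipocyte list again moved, with 10 of 11 genes called lower in the tumors and a median fold of 0.104, and 5 of 8 lymphocyte genes and 5 of 8 endothelial genes were called lower, against 21.8% of all genes. Their part in these differences was not tested.

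Against virgin glands, which serve as the common control of the next 2 comparisons, the tumors of both lines had higher Ctnnb1. In WntT against VMG limma called 2 of 5 clones and 49.4% of all clones. Ctnnb1 was 3.43-fold higher (1.78 ± 0.52, adjusted p = 0.00564), with 15 of 23 tumors above every virgin gland, and Tcf4 15j20 was 1.2-fold higher (0.27 ± 0.09, 0.0104), a call lost without VMG 27 (0.19, adjusted p = 0.0797). Tcf7l2 missed the threshold at 0.54 ± 0.24 (adjusted p = 0.0644) and passed it after array centring (0.60, 0.0402), quantile normalization (0.67, 0.0297) and with all groups in 1 fit (adjusted p = 0.0304). In NeuT against VMG limma called 2 of 5 clones and 52.2% of all clones. Ctnnb1 was 2.5-fold higher (1.32 ± 0.52, adjusted p = 0.0416), but only 2 of 12 tumors were above every virgin gland and the call was lost without VMG 13, 17, 28 or 29 (adjusted p = 0.131, 0.16, 0.0528 and 0.0507). Tcf4 17a12 was lower by 1.22 ± 0.24 (-1.22, adjusted p = 0.000301), with 11 of 12 Neu tumors below every virgin gland, while in WntT it differed from VMG by 0.29 ± 0.20 (0.245). All 11 adipocyte genes were called lower in both sets of tumors, where 25.3% of all genes were called lower in WntT and 27.7% in NeuT, and 4 of 5 myoepithelial genes were called lower in NeuT. Of 8 endothelial genes 7 were called lower in WntT and 8 in NeuT, and 5 of 8 lymphocyte genes were called lower in each. Of 5 luminal genes 3 were called higher and 1 lower in WntT, and 2 higher and 3 lower in NeuT. Their part in these differences was not tested.

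Wnt-1-induced tumors were next compared with Neu-induced tumors, which asks how the initiating oncogene marks the tumor. The HMG-box partner Tcf7l2 and both Tcf4 clones were higher in WntT, 3 of 5 clones where limma called 43.6% of all clones. Tcf4 17a12 was 2.85-fold higher (1.51 ± 0.15, adjusted p = 7.22e-11) and Tcf4 15j20 1.28-fold higher (0.36 ± 0.06, 9.8e-06), a gap in size between 2 clones of 1 gene. Tcf7l2 was 1.5-fold higher (0.59 ± 0.17, adjusted p = 0.00373), with 14 of 23 Wnt-1 tumors above and 1 below every Neu tumor. Beta-catenin RNA did not pass the test. Ctnnb1 differed by 0.46 with a 95% confidence interval of -0.25 to 1.17 (adjusted p = 0.304), and Lef1 by -0.18 with an interval of -0.77 to 0.41 (0.652). Myoepithelial marker genes also separated these tumors, 4 of 5 called higher in WntT, with sample means of -0.32 to 0.99 in WntT and -2.05 to -0.67 in NeuT. Of 8 endothelial genes 5 were called higher in WntT, where 21.2% of all genes were, although sample means overlapped, from -1.30 to -0.50 in WntT and -1.32 to -1.02 in NeuT. Their part in the Tcf7l2 and Tcf4 differences was not tested.

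**Figure D2:**
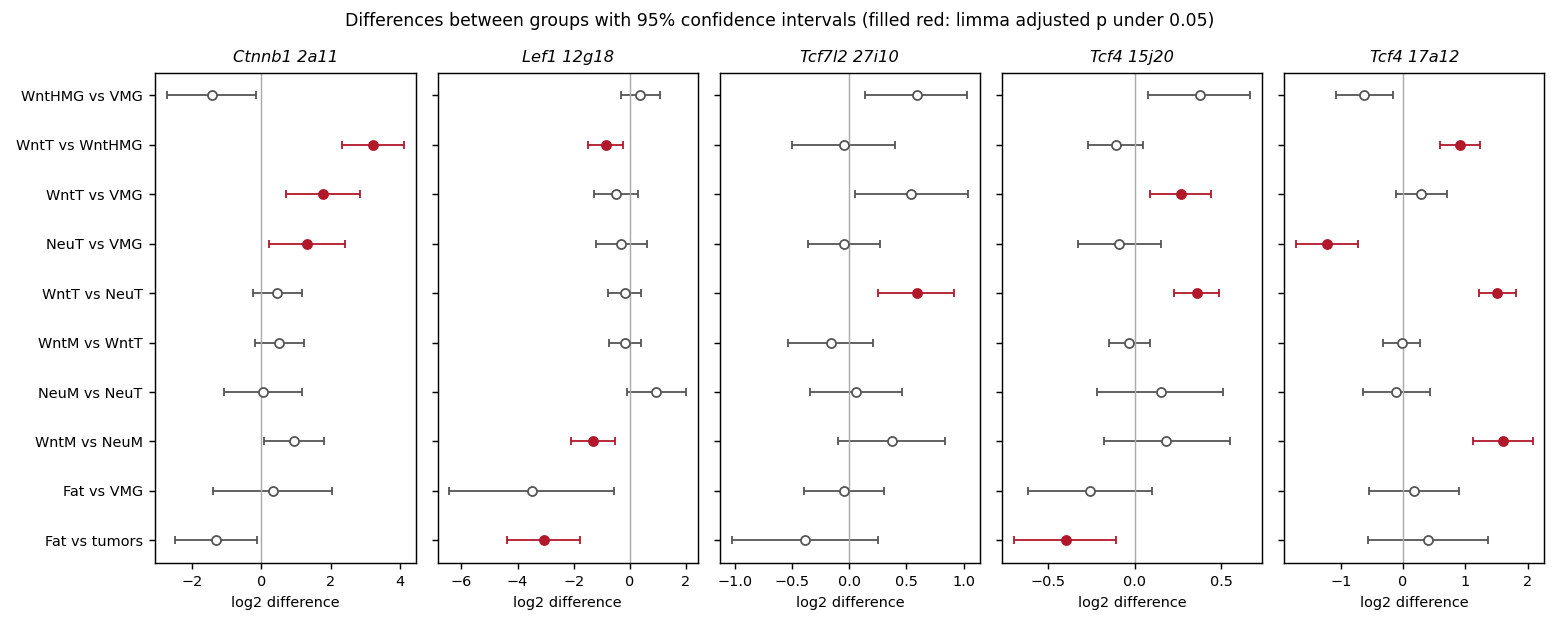
Log2 differences (x axis, a scale of its own in each panel) between the first and the second group of each comparison (rows) for the 5 clones on the 15k arrays, with 95% confidence intervals from limma and filled red points where the adjusted p was under 0.05. Ctnnb1 was called in WntT against WntHMG and in both tumor types against VMG, and Tcf4 17a12 was called in opposite directions in NeuT against VMG and WntT against WntHMG.

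Set in order of their mean levels over the 8 groups of the 15k arrays, few neighbours differed beyond their spread. With all groups in 1 limma fit, 2 of 35 neighbouring pairs had an adjusted p under 0.05. Lef1 was lower in Fat than in the tail vein metastases (adjusted p = 0.0297), and Tcf4 17a12 was lower in NeuT than in WntHMG (0.00577). For Lef1, Fat 44 (-9.59) and Fat 45 (-5.09) lay below the tail vein values of -4.71 and -2.95. Fat 46, at -3.50, lay between those values. For Ctnnb1 the descending order was WntM, WntT, NeuM tail vein, NeuM, NeuT, Fat, VMG and WntHMG, and its closest miss was VMG over WntHMG (adjusted p = 0.0669). For Tcf7l2 the order was WntHMG, WntT, WntM, NeuM tail vein, NeuM, VMG, NeuT and Fat, with adjusted p from 0.659 to 1 between neighbours.

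The Ctnnb1 clone moved with clones of other widely expressed genes. Over the 65 arrays its highest correlations were with clones of Eef1a1 (r = 0.95), the translation elongation factor, Usp7 (0.92), a deubiquitinase, Ctbp1 (0.91), a co-repressor, Kpnb1 (0.91), a nuclear import receptor, and Prpf8 (0.90), a splicing factor. After subtraction of each group's mean, r remained between 0.80 and 0.88 for these 5. Their differences in 1 comparison stand here as examples. In WntT against WntHMG, where Ctnnb1 was 9.26-fold higher, Eef1a1 clone 21a15 was 4.03-fold higher (2.01 ± 0.24, limma adjusted p = 3.52e-08), Ctbp1 clone 18a6 3.89-fold higher (1.96 ± 0.22, 1.06e-08) and Kpnb1 clone 5g18 3.09-fold higher (1.63 ± 0.19, 3.88e-08). Other clones of 2 of these genes gave other values. Ctbp1 clone 8f2 had r = 0.35 with Ctnnb1 and was 1.2-fold higher (0.27 ± 0.08, 0.00691), and Usp7 clone 18a7 had r = 0.02 and differed by 0.10 ± 0.08 (0.291) where clone 1h20 was 2.83-fold higher (adjusted p = 7.1e-06). Usp7 clone 1l15 had r = 0.63 and was 1.43-fold higher (0.52 ± 0.17, 0.013). The second clone of Prpf8, 20o14, had r = 0.86. With 1 clone of Ctnnb1 on the arrays, no second clone could be read against it, whether its values measure Ctnnb1 alone was not tested, and all of these points share the reference channel and the arrays.

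**Figure D3:**
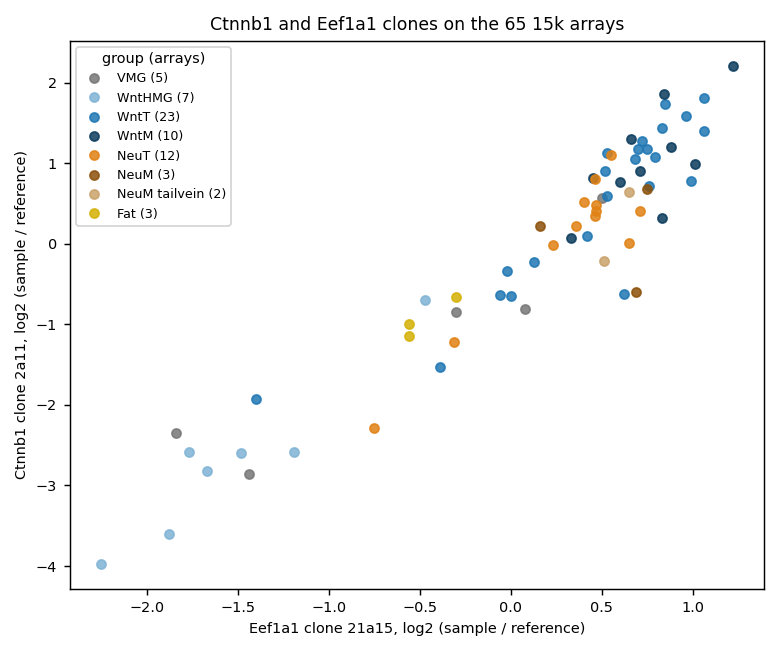
Log2 ratio of the Ctnnb1 clone 2a11 (y axis) against that of the Eef1a1 clone 21a15 (x axis) on the 65 15k arrays, 1 point an array, coloured by group. The points lie along 1 line (r = 0.95), with most WntHMG and VMG 13 and 17 at its lower end and WntT and WntM at its upper end.

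The other clones had other companions over the same 65 arrays. Lef1 was most like Gnmt (r = 0.80), 2310001H17Rik (0.78), Prodh2 (0.77), Zc2hc1a (0.77) and Akr1c21 (0.76), and these fell to between 0.43 and 0.58 over the 59 arrays without those of wide spread. Tcf7l2 was most like Unc45a (0.72), Zfp157 (0.71), Cradd (0.68), Pbrm1 (0.68) and Lcp1 (0.67). Other clones gave 0.28 and 0.11 for Pbrm1, 0.56 and -0.16 for Unc45a, and 0.62 for Zfp157. Tcf4 15j20 was most like Gm3531 (0.86), Ube2e1 (0.82), Rps15a (0.81), Ctsz (0.80) and Eef1b2 (0.79), while another clone of Rps15a gave 0.35. Tcf4 17a12 was most like Zfp703 (0.90), Amotl1 (0.85), Ccnd2 (0.85), Ptges (0.84) and Dpysl3 (0.84), which fell to between 0.16 and 0.54 within groups. Of these, Ccnd2 (a D-type cyclin) and Dpysl3 (a cytoskeletal regulator) had other clones with r of 0.75 to 0.80, whereas 3 other clones of Amotl1 gave -0.06 to 0.17.

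Among the 23 Wnt-1 tumors, no 2 of the 5 clones varied together beyond the threshold. Of 10 pairs the strongest was Ctnnb1 with Tcf7l2, which ran opposite ways (Pearson r = -0.53, permutation p = 0.00851, adjusted p = 0.0851, and Spearman rho = -0.53, permutation p = 0.00965, adjusted p = 0.0965). It was -0.46 without the 2 arrays farthest from the median of Ctnnb1 and -0.55 without the arrays of wide spread. The 2 Tcf4 clones had r = -0.26 (permutation p = 0.221, adjusted p = 0.553, rho = -0.25, permutation p = 0.24).

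Lung metastases were compared with primary tumors to see what accompanies spread. None of the 5 clones was called in WntM against WntT, where limma called 4.62% of all clones, and none had an unadjusted p under 0.05. Ctnnb1 differed by 0.52 (95% confidence interval -0.19 to 1.23), Tcf7l2 by -0.16 (-0.54 to 0.21), Lef1 by -0.18 (-0.74 to 0.39), Tcf4 15j20 by -0.03 (-0.15 to 0.09) and Tcf4 17a12 by -0.02 (-0.32 to 0.28). In NeuM against NeuT, with 3 metastases, limma called none of the 5 and 0.195% of all clones, and again none had an unadjusted p under 0.05. The widest gap was in Lef1, at 0.95 (-0.11 to 2.00, adjusted p = 0.796). A test of whether the metastasis effect differed between the lines called none of the 5 and 0.0651% of all clones, with Lef1 at -1.12 (-2.27 to 0.03, adjusted p = 0.705). Lung epithelial genes were higher in the metastases, 4 of 7 called higher in WntM, where 2.56% of all genes were, and 3 of 7 in NeuM, where 0.124% were. In WntM 4 of 8 endothelial and 2 of 5 myoepithelial genes were called higher too, and in NeuM 1 of 8 endothelial genes.

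Between metastases of the 2 lines the split of Tcf4 clone 17a12 recurred, while clone 15j20 was not called (0.18, -0.18 to 0.55, limma adjusted p = 0.521). Of these metastases 7 WntM and 3 NeuM share title numbers with primary tumors, and whether they came from the same animals is not known. In WntM against NeuM limma called 2 of 5 clones and 15.2% of all clones. Tcf4 17a12 was 3.03-fold higher in WntM (1.60 ± 0.22, adjusted p = 0.000346), and all 10 WntM were above all 3 NeuM. Of the marker lists 3 of 5 myoepithelial genes and 4 of 8 endothelial genes were called higher in WntM, where 6.54% of all genes were, and their part in the Tcf4 difference was not tested. Lef1 was lower in WntM (-1.30 ± 0.36, adjusted p = 0.0271), and all 10 WntM were below all 3 NeuM. The Lef1 call was lost without any 1 of NeuM 53, 56 or 61 (adjusted p = 0.0778, 0.0952 and 0.0916) and after quantile normalization (-0.69, 0.309), with all groups in 1 fit (adjusted p = 0.151) or with trend and robust (0.0613). Without NeuM 61 Tcf4 15j20 was called too (0.48, adjusted p = 0.0301). Ctnnb1 differed by 0.94 (0.08 to 1.80, adjusted p = 0.138) and Tcf7l2 by 0.37 (-0.10 to 0.84, adjusted p = 0.303).

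Intestinal fat served as a control for fat cells in the gland. In Fat against VMG limma called none of the 5 clones and 9.09% of all clones, with all clones shifted by a median of -0.106. Lef1 was the 1 of them with an unadjusted p under 0.05 in limma (-3.50 ± 1.26, p = 0.0255, adjusted p = 0.121), which 29.2% of all clones had, and without Fat 44 it differed by -1.73 (adjusted p = 0.085). In Fat against the 35 tumors, where all clones shifted by a median of -0.111, limma called 2 of 5 clones and 53.3% of all clones. Lef1 was lower by 3.07 ± 0.64 (-3.07, adjusted p = 0.000122) and Tcf4 15j20 by 0.40 ± 0.14 (-0.40, 0.0172). Both calls rested on Fat 44, without which Lef1 differed by -1.31 (adjusted p = 0.0838) and Tcf4 15j20 by -0.37 (0.103), and the latter was lost without Fat 46 too (-0.38, adjusted p = 0.0714). Quantile normalization (-1.09, adjusted p = 0.0645) ended the Lef1 call as well. Ctnnb1, at -1.29 ± 0.58 (adjusted p = 0.0591), Tcf7l2 and Tcf4 17a12 were not called.

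On the 8.7k arrays, which were normalized apart from the 15k arrays, loss of p53 was compared within MMTV-Wnt-1 tumors. None of the 4 clones was called, limma called 0.442% of 8832 clones, and no clone of the 4 had an unadjusted p under 0.05. Ctnnb1 ran from -0.02 through 0.88 to 1.88 in 10 WntT and from -0.79 through 0.98 to 1.24 in 6 p53-/- tumors (difference -0.07, 95% confidence interval -0.71 to 0.57, adjusted p = 0.941). Lef1 ran from -3.84 through -3.04 to -1.94 and from -4.07 through -2.45 to -1.30 (0.30, -0.54 to 1.14, 0.765). Both Tcf4 clones were above the reference in nearly every tumor. Clone 15j20 averaged 1.35 ± 0.47 (SD, n = 10) and 1.44 ± 0.47 (n = 6), and clone 17a12 1.24 ± 0.52 (n = 10) and 1.39 ± 0.64 (n = 6). Some arrays stood at the same end for both clones. WntT 92 was the lowest WntT for both, at 0.34 and -0.09. Tumors 86, 88 and 89 without p53 read 1.83, 1.76 and 1.83 for 15j20 and 1.79, 1.86 and 2.07 for 17a12. The lowest p53-/- tumor differed, 90 for 15j20 (0.64) and 87 for 17a12 (0.51). Their correlation on these arrays was not tested.

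**Figure D4:**
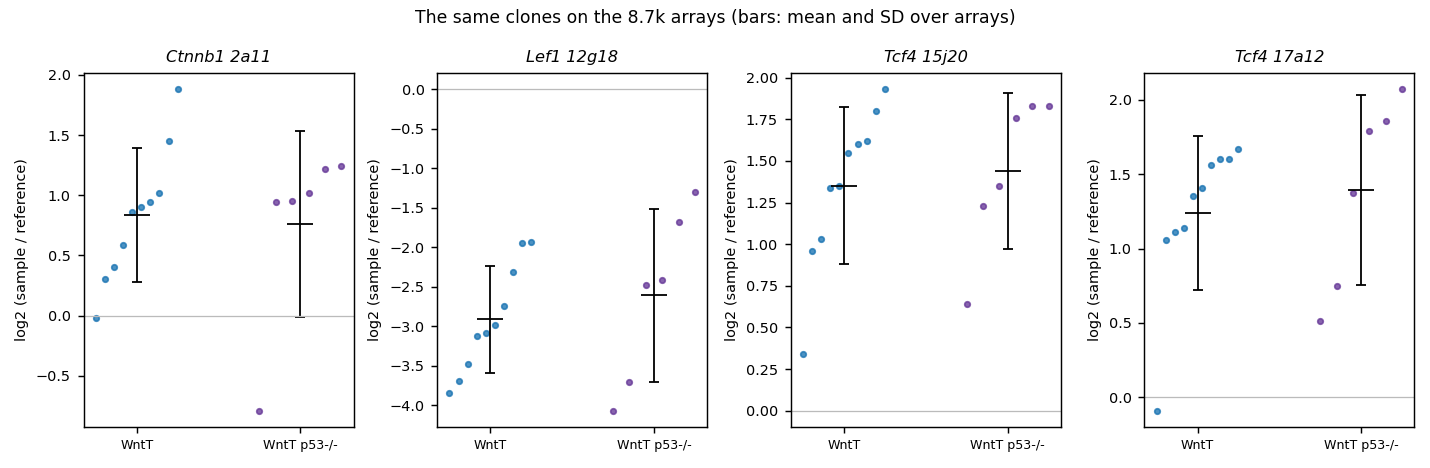
Log2 ratios of sample to reference (y axis, a scale of its own in each panel) for 4 clones in 10 WntT and 6 p53-/- WntT on the 8.7k arrays, each point 1 array, with the group mean and SD. The 2 groups overlap for every clone, and p53-/- tumor 87 lies at -0.79 for Ctnnb1 while the other 5 lie from 0.94 to 1.24.

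Genes that act with beta-catenin and TCF were read from lists, with clones of a gene averaged and limma run on 11266 genes. The target list held 12 measured genes. In WntHMG against VMG 8 rose and none fell, with a median fold of 1.76 against 0.993 over all genes, of which 22.3% were called and 9.08% called higher. Myc, the growth-promoting transcription factor, was 3.51-fold higher (1.81 ± 0.19, adjusted p = 8.48e-05) and Nkd1, a feedback inhibitor of Wnt signaling, 2.32-fold higher (1.22 ± 0.15, 0.000221). Of the others, Axin2, a scaffold of the destruction complex, rose 1.72-fold (adjusted p = 0.0136). Ctnnb1, Lef1, Tcf7l2 and Tcf4, set beside these, had no clone that passed in that comparison. Marker lists moved in it too. Of 5 luminal genes 3 were called higher and 1 lower, with a median fold of 1.69, and 10 of 11 adipocyte and 5 of 8 endothelial genes were called lower. The part of these lists in the rise of the target genes was not tested.

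In WntT against NeuT 7 of the 12 target genes rose and none fell, with a median fold of 1.62 against 0.973 over all genes, of which 43.4% were called, 21.2% higher and 22.3% lower. Axin2 (4.73-fold, 2.24 ± 0.17, limma adjusted p = 1.09e-13) and Tnfrsf19, a receptor of the tumor necrosis factor family (2.49-fold, 1.32 ± 0.12, 1.02e-11), had the smallest adjusted p. The Tnfrsf19 value is an average of 3 clones, and whether they follow each other was not tested. Nkd1, Rnf43 and Sox9 differed by -0.10, -0.09 and 0.13 and were not called. Against VMG 8 of the 12 rose and 1 fell in WntT, where 24% of all genes rose, and 6 rose and 3 fell in NeuT, where 25.4% rose. In WntT Ccnd1, cyclin D1, rose 11.3-fold (3.50 ± 0.18, limma adjusted p = 1.16e-15) and Myc 5.25-fold (2.39 ± 0.13, 2.7e-15). Twist1 fell in both lines, at -1.13 ± 0.17 in WntT (2.18e-06) and -2.31 ± 0.14 in NeuT (1.43e-10). Nkd1, Rnf43 and Sox9 were among those that rose in both, Nkd1 3.99-fold in WntT and 4.27-fold in NeuT. Axin2 parted the lines against the shared controls, at 0.82 ± 0.20 in WntT (adjusted p = 0.00118) and -1.42 ± 0.24 in NeuT (6.64e-05). Between tumors and metastases of MMTV-Wnt-1 mice 1 of 12 was called, Twist1, a helix-loop-helix factor of mesenchymal cells that is also among the partners of Tcf4 below, at -1.42 ± 0.33 (adjusted p = 0.00632) where 5.02% of all genes were called. Between metastases of the 2 lines 4 of 12 rose in WntM and none fell, where 6.54% of all genes rose and 7.87% fell, and Axin2 was 3.68-fold higher (1.88 ± 0.24, adjusted p = 0.000214).

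**Figure D5:**
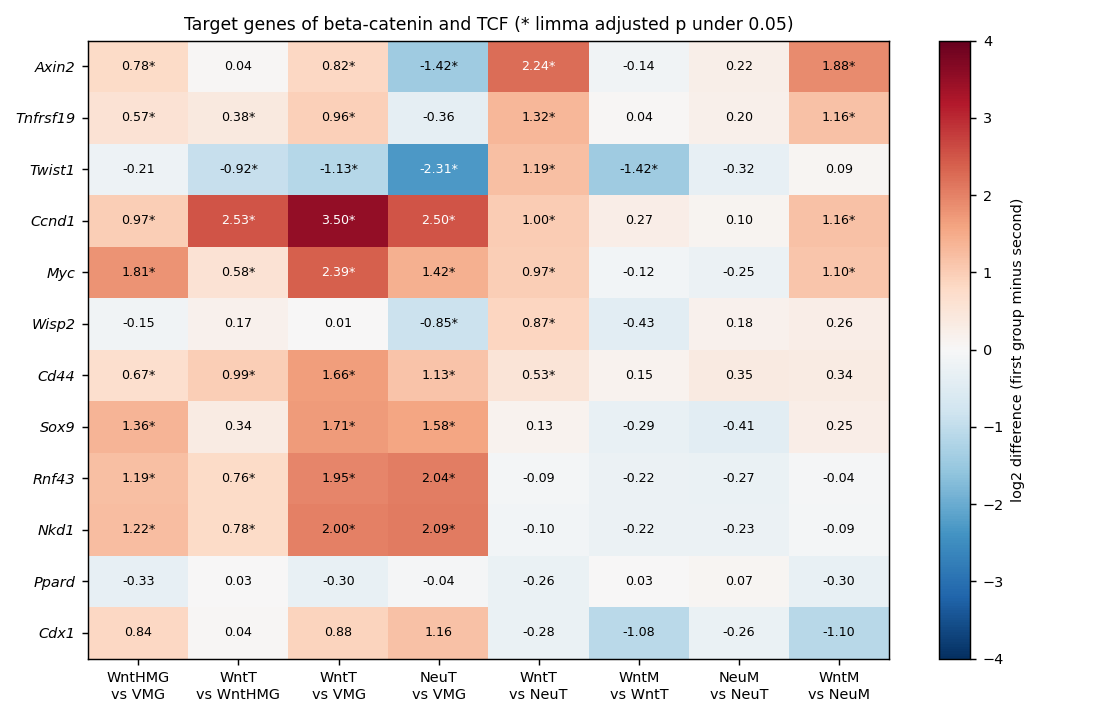
Log2 differences (colour and number) of the 12 target genes of beta-catenin and TCF (rows) in 8 comparisons (columns), first group minus second, with an asterisk where the limma adjusted p was under 0.05. Axin2 is higher in WntT and lower in NeuT against VMG, while Nkd1, Rnf43 and Sox9 are higher in both.

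The destruction complex and its relay, 19 measured genes that mark beta-catenin for degradation or switch that off, were read between hyperplastic glands and tumors and between the 2 sets of tumors. In WntT against WntHMG 11 rose and 1 fell, with a median fold of 1.21 against 0.967 over all genes, of which 41.7% were called, 19.9% higher and 21.8% lower. Ppp2r1a, a scaffold of protein phosphatase 2A, was 4.63-fold higher (2.21 ± 0.14, adjusted p = 4.33e-14) and the kinase Gsk3b 1.79-fold higher (0.84 ± 0.06, 6.13e-13), and Ppp2r5a, a regulatory subunit of the phosphatase, was lower by 0.26 ± 0.11 (-0.26, 0.0435). In WntT against NeuT 5 rose and 1 fell, a smaller share than the 43.4% called over all genes. Frat1, which frees beta-catenin from Gsk3, was 1.53-fold higher (0.62 ± 0.06, 3.78e-11), the tankyrase Tnks2 1.42-fold higher (0.50 ± 0.10, 6.63e-05), and the ligase subunit Rbx1 lower by 0.35 ± 0.10 (-0.35, 0.00316).

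Nuclear cofactors of beta-catenin and TCF numbered 21 measured genes. In WntT against NeuT 6 rose and 3 fell, with a median fold of 1.05, a share near the 43.4% called over all genes. Hdac2, a histone deacetylase, was 1.9-fold higher (0.92 ± 0.08, limma adjusted p = 7.7e-12) and the acetyltransferase Crebbp 1.18-fold higher (0.24 ± 0.05, 0.000232), while Kat5 (-0.54 ± 0.08, 1.25e-06) and Trrap (-0.30 ± 0.05, 1.81e-06), subunits of an acetyltransferase complex, were lower. In WntT against WntHMG 9 rose and 1 fell, where 19.9% of all genes rose and 21.8% fell. The chromatin remodeler Smarca4 was 2.43-fold higher (1.28 ± 0.11, 4.82e-11) and the arginine methyltransferase Carm1 1.79-fold higher (0.84 ± 0.07, 4.82e-11), while Ep300, an acetyltransferase, was lower by 0.28 ± 0.08 (-0.28, 0.00359). None of the 21 was called in WntM against WntT, where limma called 5.02% of all genes.

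Cadherin and catenin adhesion genes, the other place where beta-catenin works, numbered 17. In WntT against NeuT 6 rose and 5 fell, with a median fold of 1.05, where 21.2% of all genes rose and 22.3% fell. The junction protein vinculin (Vcl) was 2.4-fold higher (1.26 ± 0.08, limma adjusted p = 3.55e-16) and N-cadherin (Cdh2) 3.38-fold higher (1.76 ± 0.12, 6.47e-15). Jup, the plakoglobin relative of beta-catenin, was lower by 0.34 ± 0.07 (-0.34, 0.000124), and Ctnnd1, p120 catenin, by 0.44 ± 0.11 (-0.44, 0.00131). In WntHMG against VMG 4 rose and 3 fell, where 9.08% of all genes rose and 13.2% fell. Those that rose included the desmosomal cadherin Dsc2 (7.01-fold higher, 2.81 ± 0.27, 7.5e-05) and E-cadherin, Cdh1 (3.59-fold higher, 1.85 ± 0.19, 8.48e-05). Cdh5 (-0.71 ± 0.12, 0.00113), the cadherin of endothelial cells, and Ptprm (-0.53 ± 0.11, 0.00464) fell, and 5 of 8 endothelial markers, Cdh5 included, fell with them. Of 5 luminal genes 3 were called higher and 1 lower in this comparison, and 10 of 11 adipocyte genes were called lower. The part of these lists in the adhesion genes was not tested.

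For the helix-loop-helix Tcf4, 9 partners and relatives were measured. In WntT against NeuT 3 rose and 3 fell, with a median fold of 1.03, where 21.2% of all genes rose and 22.3% fell. Id4, an inhibitor of helix-loop-helix factors, was 67-fold higher (6.07 ± 0.13, limma adjusted p = 1.09e-28), and Tcf3, the E protein E2A, 1.89-fold higher (0.92 ± 0.07, 2.42e-13). Bhlhe40 (-0.68 ± 0.11, 3.91e-06) and Tcf15 (-0.19 ± 0.07, 0.0236) were lower. Between metastases of the 2 lines Id4 was 59-fold higher in WntM (5.88 ± 0.17, adjusted p = 3.42e-10) and Tcf3 2.01-fold higher (1.00 ± 0.13, 0.00021). In WntHMG against VMG, where neither Tcf4 clone was called, Id4 was 6.8-fold higher (2.77 ± 0.14, 4.25e-07). On the 8.7k arrays none of 7 such genes was called between p53-/- and other WntT, where limma called 0% of 7410 genes.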

How the data were processed

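The authors hybridized Cy5-labeled sample and Cy3-labeled reference cDNA to spotted arrays, scanned them with a GenePix scanner and deposited normalized log2 ratios, 1 column an array, which are used here as deposited. Their quality scores were not used. Columns and groups follow the labels. Clones were named from GEO's platform annotation (11860 of 15360 and 7147 of 8832 clones have a single symbol) and RefSeq. Each comparison was fitted with limma 3.58.1 (R 4.3.3) on its 2 groups, over clones with a value on at least 50% of each group and 2 arrays, with Benjamini-Hochberg adjustment over all clones and a threshold of 0.05. The fit was tested on simulated data. Permutation tests used up to 100000 splits. The number of arrays limits precision. Members, lists and tests were chosen with earlier results of these data known. All members are named. For each pathway list the rule took the called genes of the 2 smallest adjusted p in each direction in the comparisons described. Some genes that this rule gives are left out of the text. Others, such as those shown in the target plot, were named after their values were seen. For likeness, the 5 clones of other single symbols of highest Pearson r are named. Alternatives were array centring, quantile normalization, extreme ratios (under 0.01 or over 100) set missing, complete values, all groups in 1 fit, limma with trend and robust, the methods' permuted t statistic at P under 0.001, arrays of SD over 1.3 left out, single arrays left out, and the title number as a block. Another 8.7k comparison is left out.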

Additional observations from a re-analysis of the deposited data

Results flagged for a closer look

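Of 23 groups of 4 to 10 arrays tested, 1 clone at a time, 4 held an array far from the others, and chance alone flags about 1 in 20. For Ctnnb1 WntHMG 9 read -0.70 and the other 6 lay from -3.97 to -2.58. For Tcf4 15j20 WntHMG 5 read 1.28 and the others lay from 0.59 to 0.84. On the 8.7k arrays p53-/- tumor 87 read -0.79 for Ctnnb1 and the other 5 lay from 0.94 to 1.24. For Tcf4 17a12 WntT 92 read -0.09 and the other 9 lay from 1.06 to 1.67.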

How the results depend on the processing

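Of 579 results of single clones under alternatives, 544 kept their side of the threshold and, where called, their direction, none reversed, 20 lost a call and 15 gained one. Counts of called clones moved by over 1.5 times in 6 comparisons. WntHMG against VMG went from 0 to 2 with quantile normalization, 1 with all groups in 1 fit, 1 with trend and robust, and 0 to 3 without single arrays. WntT against VMG went from 2 to 0 by the permuted t statistic, 1 to 2 without single arrays, and 3 with array centring, quantile normalization or all groups in 1 fit. NeuT against VMG went from 2 to 1 by the permuted t statistic and 1 to 2 without single arrays. WntM against NeuM went from 2 to 1 with quantile normalization, all groups in 1 fit, or trend and robust, and 1 to 2 without single arrays. Fat against VMG went from 0 to 1 with all groups in 1 fit. Fat against tumors went from 2 to 1 with quantile normalization or extreme ratios missing, 0 without arrays of wide spread, 0 by the permuted t statistic, 0 to 2 without single arrays and 3 with all groups in 1 fit. By less, WntT against WntHMG went from 3 to 2 with quantile normalization, all groups in 1 fit or the permuted t statistic, and WntT against NeuT from 3 to 2 by the permuted t statistic. The cause was not tested. The permuted test could not reach 0.001 in WntHMG against VMG, NeuM against NeuT, WntM against NeuM or Fat against VMG, where the smallest exact p was 0.00126, 0.0022, 0.0035 and 0.0179.

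Over all clones, calls in WntM against WntT went from 710 (380 higher) to 337 (220 higher) without arrays of wide spread and 102 (75 higher) with the replicate block, and 380 of 874 were higher with all groups in 1 fit. NeuM against NeuT went from 30 to between 2 and 57, WntM against NeuM from 2334 to 1369 without NeuM 61 and 1527 without NeuM 53, Fat against VMG from 1396 to between 577 and 4522, p53-/- against other WntT from 39 to between 5 and 63, and the difference of metastasis effects from 10 (5 higher) to 1 without arrays of wide spread, 5 without NeuM 56, 0 with the replicate block and 7 (6 higher) with quantile normalization. Array centring turned 13 higher of 39 into 10 of 22 for p53-/- against other WntT, and quantile normalization into 3 of 5.

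No source used here says what the title numbers that tumors and metastases share stand for, and they were not taken as pairs. Correlations of same-numbered samples' deviations ran from -0.0623 to 0.283 (7 Wnt-1 pairs) and from -0.00625 to 0.117 (3 Neu pairs), and 1 of the 7 Wnt-1 metastases and 0 of the 3 Neu metastases correlated best with the tumor of their own number. With the number as a replicate block limma called 0 of the 5 clones in WntM against WntT, NeuM against NeuT and their difference, as without it. On the 15k arrays WntT and NeuT share no number.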
